A study of Mus musculus with 3 samples.

Results

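Of the 74494 PU.1 peaks called in replicate 2, 19556 (26.3%) lay deep inside gene bodies. A peak was placed in this class when its centre fell inside the span of a protein-coding gene and more than 10 kb from the nearest end of any protein-coding gene, on RefSeq spans of build mm10. The choice used position alone, so the peak score and the presence of a peak in replicate 3 were free to be compared. The data are PU.1 ChIP-seq (chromatin immunoprecipitation followed by sequencing) from i660BM cells, a C57BL/6 mouse pro-B cell line that carries an inducible PU.1 system and is grown with IL-7. Both PU.1 libraries, titled with the numbers 2 and 3, came from cells given 70 ng/ml doxycycline for 24 h, and 1 input DNA sample completes the series. Uninduced cells are not analysed here, so no binding can be set against a state without induced PU.1. The lists carry no read counts, so the depth behind them is unknown, and nothing in the labels says that the libraries came from separate cultures.

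PU.1 is encoded by Spi1, belongs to the ETS transcription factors, and is needed for B cells and myeloid cells to develop. ETS factors recognise a GGAA core, and PU.1 favours that core behind purines, as in GAGGAAGT. Its binding sites are found at promoters and, in large numbers, at enhancers, many of which lie in introns far from either end of a gene. Peaks deep inside a gene therefore sit where intronic enhancers, internal promoters and plain intronic sequence all occur. The spans used here carry no exons, so exon and intron could not be told apart for any peak.

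A few deep peaks covered an annotated transcription start inside a longer gene, and these are the places where reference sequence could be read. RefSeq gave 32851 start windows of 300 bases (250 before the start and 50 after it, build GRCm38.p6, the assembly of mm10), and 3250 of those starts lay in the interior. Of the interior starts, 382 (11.8%, 95% interval 10.7 to 12.9) lay in a deep peak, against 26.1% of all starts in any replicate 2 peak. For protein-coding interior starts the share was 16.2% (14.4 to 18.2, 242 of 1490), and for non-coding ones 7.95% (6.73 to 9.32, 140 of 1760). Deep peaks covered 2.81% of interior bases, so starts were covered more often than interior sequence as a whole. In all, 55 interior starts of 41 genes lay in a deep peak that replicate 3 also had.

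The windows of 6 protein-coding starts in such shared peaks are shown because they had the highest replicate 3 scores, 1 per host gene. Capitals mark GAGGAA or AGGAAG on the strand shown, or their reverse complements TTCCTC and CTTCCT, which overlap each other in some places. The windows are chr1:80665303-80665602 on the minus strand for Dock10, chr7:101450766-101451065 on the plus strand for Pde2a, chr9:122865957-122866256 on the minus strand for Zfp445, chr11:118212682-118212981 on the minus strand for Cyth1, chr2:22774077-22774376 on the plus strand for Apbb1ip and chr5:35729227-35729526 on the minus strand for Sh3tc1.
Dock10: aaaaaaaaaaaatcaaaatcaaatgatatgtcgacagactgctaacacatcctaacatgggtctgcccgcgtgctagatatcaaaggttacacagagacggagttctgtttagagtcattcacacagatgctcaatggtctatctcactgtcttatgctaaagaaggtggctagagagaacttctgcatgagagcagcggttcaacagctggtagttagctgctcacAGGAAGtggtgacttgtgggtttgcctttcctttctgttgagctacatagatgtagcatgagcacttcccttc
Pde2a: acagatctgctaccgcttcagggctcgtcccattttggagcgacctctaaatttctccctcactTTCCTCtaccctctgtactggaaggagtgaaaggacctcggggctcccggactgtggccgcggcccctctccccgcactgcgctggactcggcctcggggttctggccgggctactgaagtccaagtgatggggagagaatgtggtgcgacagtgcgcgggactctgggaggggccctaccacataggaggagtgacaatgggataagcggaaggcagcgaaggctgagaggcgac
Zfp445: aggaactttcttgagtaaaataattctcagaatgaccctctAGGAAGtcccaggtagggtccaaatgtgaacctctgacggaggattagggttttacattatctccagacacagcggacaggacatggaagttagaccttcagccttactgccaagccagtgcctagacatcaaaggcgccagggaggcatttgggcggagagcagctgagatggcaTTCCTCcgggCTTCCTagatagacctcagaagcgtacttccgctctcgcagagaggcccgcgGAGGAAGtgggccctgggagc
Cyth1: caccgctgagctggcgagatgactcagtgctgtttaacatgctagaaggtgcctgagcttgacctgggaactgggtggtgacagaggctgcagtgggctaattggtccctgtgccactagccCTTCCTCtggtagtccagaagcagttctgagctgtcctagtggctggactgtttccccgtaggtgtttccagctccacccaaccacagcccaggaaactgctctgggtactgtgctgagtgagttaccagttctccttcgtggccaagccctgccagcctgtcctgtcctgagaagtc
Apbb1ip: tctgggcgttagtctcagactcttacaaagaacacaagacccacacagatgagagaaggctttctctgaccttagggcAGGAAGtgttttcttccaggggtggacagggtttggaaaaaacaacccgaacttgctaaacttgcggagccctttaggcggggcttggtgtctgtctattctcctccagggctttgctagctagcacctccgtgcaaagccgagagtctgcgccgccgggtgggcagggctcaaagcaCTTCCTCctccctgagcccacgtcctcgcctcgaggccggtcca
Sh3tc1: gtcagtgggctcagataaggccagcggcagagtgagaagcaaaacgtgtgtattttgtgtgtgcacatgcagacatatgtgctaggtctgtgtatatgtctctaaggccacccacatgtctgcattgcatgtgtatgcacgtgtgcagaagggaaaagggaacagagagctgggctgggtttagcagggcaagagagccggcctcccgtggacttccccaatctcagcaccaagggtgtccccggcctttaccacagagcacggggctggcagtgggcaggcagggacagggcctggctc

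Zfp445, which encodes a zinc-finger protein, held 4 capital stretches, and Apbb1ip, an adaptor that links Rap1 to integrins in blood cells, held 2. Dock10, an exchange factor of lymphocytes, held 1, as did Pde2a, a cyclic nucleotide phosphodiesterase, and Cyth1, an exchange factor for Arf GTPases. The same Pde2a peak also covers the Pde2a starts at chr7:101450520 and chr7:101451252, so the score does not choose between them. The windows of those starts, not shown, held no GAGGAA on either strand. The Sh3tc1 window held none, which says only that these letters are not in these 300 bases, since the peak is longer than the window. In replicate 2, 5 of the 6 peaks scored 3100, a recurring value explained below, and Zfp445 scored 2782. In replicate 3 the scores were 647 for Dock10, 422 for Pde2a, 297 for Zfp445, 284 for Cyth1, 280 for Apbb1ip and 261 for Sh3tc1. The high scores follow from how the windows were chosen.

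Windows in shared deep peaks held the longer motifs more often than windows in no peak. The GGAA core, searched on both strands, was in 98.2% of the 55 windows in shared deep peaks, 96.9% of the 327 in deep peaks of replicate 2 alone, 95.7% of the 2864 in no peak and 96.0% of all windows. These shares were close together. GAGGAA was in 49.1% (35.4 to 62.9), 37.6% (32.3 to 43.1) and 27.4% (25.7 to 29.0) of these 3 interior sets in turn, and in 28.3% of all windows. AGGAAG was in 67.3%, 49.2% and 34.8%, and in 35.4% of all windows. GAGGAAGT, which contains both, was in 21.8% (11.8 to 35.0) of windows in shared deep peaks, 7.65% (5.01 to 11.1) of those in replicate 2 alone and 2.16% (1.66 to 2.77) of those in no peak, with 3.20% over all windows. Several starts can share a peak, this comparison was chosen after the data were seen, and it carries no test.

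The interior, all bases that meet the distance rule, measured 736 Mb, and held 26.6 replicate 2 peaks per Mb (95% Poisson interval 26.2 to 26.9). The 552 Mb within 10 kb of a gene end held 46.9 per Mb (46.3 to 47.5). Replicate 3 has a far shorter list of 6169 peaks, of which 1688 were deep by their own centres. Its rates were 2.29 per Mb (2.18 to 2.41) in the interior and 4.20 (4.04 to 4.38) near ends, so both lists were sparser in the interior. At the 10 kb limit, the 629 members centred 10 to 11 kb from an end had a median score of 263, and the 701 peaks centred 9 to 10 kb from one had 269.

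**Figure D1:**
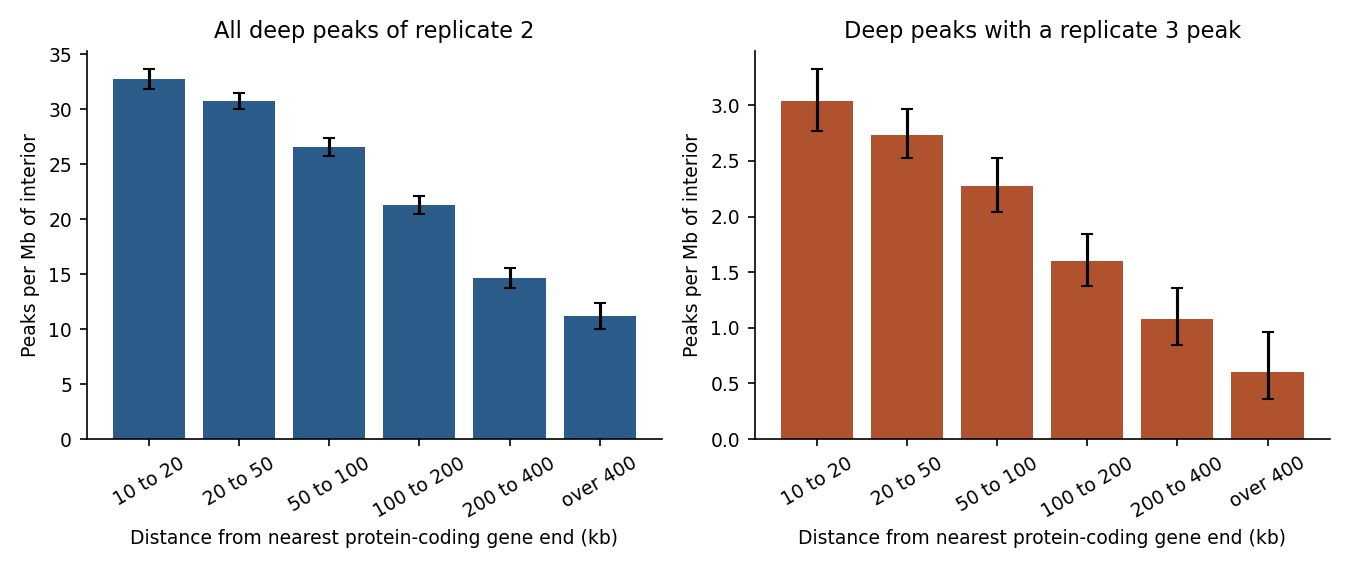
Deep peaks per Mb of interior (vertical axis) by distance from the nearest protein-coding gene end in kb (horizontal axis), for all deep peaks of replicate 2 on the left and those with a replicate 3 peak on the right; bars are rates and lines are 95% Poisson intervals. The rate goes from 32.7 to 11.2 per Mb on the left and from 3.04 to 0.606 on the right.

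Within the interior, peaks thinned with distance from the nearest end. The rate was 32.7 per Mb (31.8 to 33.6) at 10 to 20 kb, 30.7 (30.0 to 31.4) at 20 to 50 kb, 26.6 (25.7 to 27.4) at 50 to 100 kb and 21.3 (20.4 to 22.1) at 100 to 200 kb. It was 14.6 (13.7 to 15.6) at 200 to 400 kb and 11.2 (9.98 to 12.4) beyond 400 kb, where 331 peaks lay. The share with a replicate 3 peak was 9.28% (8.49 to 10.1) in the nearest band and 5.44% (3.25 to 8.46) in the farthest, and the median score was 263 and 147. Only long genes reach the far bands. In a second view, 424 genes with spans of at least 300 kb and a known strand were followed from their 5′ ends. Their rate was 23.6 per Mb (19.2 to 28.8) at 10 to 20 kb and 20.8 (18.9 to 22.9) at 250 to 300 kb. Inside these long genes the intervals of all bands up to 300 kb overlapped, and farther bands were not followed there. Over the 7816 genes of any span followed in this way, the rate was 35.2 per Mb at 10 to 20 kb and 14.1 beyond 400 kb. A place far from the 5′ end can be close to the other end of its gene, so these bands differ from those above. Whether gene length accounts for the thinning with distance from the nearest end was not tested.

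Each peak carries a score given by the caller the authors used, taken as a p-value on a log10 scale times minus 10. Many of the strongest peaks are written as exactly 3100. That value is read as a ceiling but is not the maximum, since replicate 2 scores reach 3233. The order among the strongest peaks is therefore uncertain. Deep peaks had a median score of 236 (quartiles 115 and 656), against 298 near ends and 185 for peaks outside genes and their ends. Of the deep peaks, 1990 (10.2%, 95% exact Clopper-Pearson interval 9.76 to 10.6) were in the highest 10% of the list, against 11.5% of peaks near ends and 8.53% outside, with 10% over the list by construction. The odds ratio was 0.871 (0.820 to 0.925) against peaks near ends and 1.21 (1.14 to 1.29) against those outside, with adjusted p = 8.10e-06 and 3.79e-09 (two-sided Fisher exact tests, Benjamini-Hochberg over 4 comparisons). The deep class thus stood between the other 2 classes in score. Peaks of 1 library are not independent replicates, so these p-values cover counting error within that library.

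Replicate 3 had a peak over 1687 deep peaks, 8.63% of them (8.24 to 9.03), with 8.24% over the whole list. The share was 8.91% near ends and 7.39% outside. In the other direction, 1687 of the 1688 replicate 3 peaks deep by their own centres overlapped a deep replicate 2 peak. The replicate 3 list holds 6169 peaks against 74494, which limits how large the share of replicate 2 peaks with support can be. Against peaks near ends the odds ratio was 0.965 (0.904 to 1.03; two-sided Fisher exact test, adjusted p = 0.300), and the deep share was higher on 7 of 20 chromosomes. Against peaks outside genes it was 1.18 (1.11 to 1.27; same exact test, adjusted p = 1.52e-06), with the deep share higher on 18 of 20 chromosomes. On the autosomes the share of deep peaks with replicate 3 support ran from 7.27% on chromosome 16 to 10.3% on chromosome 10. On chromosome X it was 3.87%, 22 of 569 peaks, and the other classes were low there too, at 4.40% near ends and 2.10% outside.

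**Figure D2:**
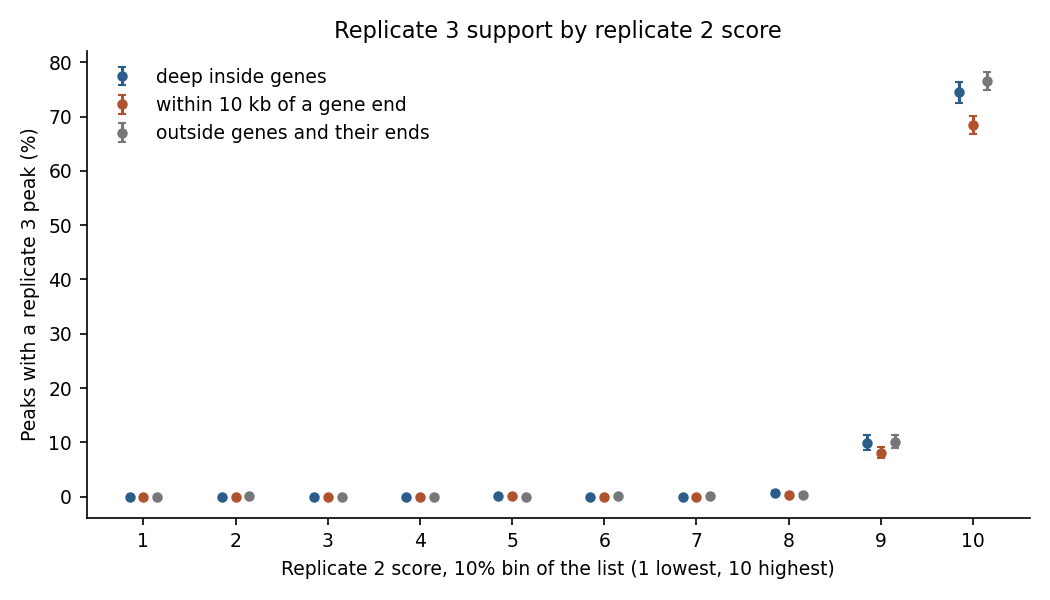
Share of replicate 2 peaks with a replicate 3 peak, in percent (vertical axis), by 10% bin of the replicate 2 score list (horizontal axis), for peaks deep inside genes, within 10 kb of a gene end, and outside; points are shares and lines are 95% Clopper-Pearson intervals. Almost all support lies in the highest bin, at 74.5%, 68.5% and 76.6% in the 3 classes.

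Support was concentrated among the highest scores. Among deep peaks 1 of 13716 in the lowest 7 of 10 score bins had a replicate 3 peak, 0.577% had one in bin 8, 9.94% in bin 9 and 74.5% (72.5 to 76.4) in the highest. Deep peaks that were shared had a median replicate 2 score of 2796, and those that were not had 202. Of the 700 deep peaks at or above 3100, 687 were shared and 13 were not. Once peaks were compared within 1% bins of score, the order against gene ends turned. The pooled Mantel-Haenszel odds ratio was 1.43 (1.27 to 1.61) against peaks near ends and 0.932 (0.821 to 1.06) against those outside. At a given replicate 2 score a deep peak was found in replicate 3 more often than a peak near a gene end, and no difference from outside peaks was detected.

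Deep peaks over an annotated start had higher scores and were wider, with a median width of 1162 bp against 987 bp for the others. A wider peak has more room to cover a start, and width was not matched. The 325 deep peaks that held an interior start had a median score of 450 and 12.3% (8.94 to 16.4) had a replicate 3 peak, against 233 and 8.56% (8.17 to 8.97) for the 19231 that held none. Within 1% score bins the pooled odds ratio was 0.427 (0.236 to 0.772), below 1, and within 10% bins it was 0.665 (0.407 to 1.09), an interval that includes 1. This comparison was also chosen after the data were seen. Of 252 miRNA hairpins in the interior, 5 lay in a deep peak and none of those peaks was in replicate 3, so no miRNA sequence is shown.

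The deep peaks fell in 5331 host genes, the host being the shortest protein-coding span over the centre. Of these, 1956 held 1 peak, 2079 held 2 to 4, 877 held 5 to 9 and 419 held 10 or more, the last group with 32.4% of all deep peaks. A shared deep peak was present in 1276 hosts, and 84 held 3 or more. Over the 7328 genes with at least 10 kb of interior, 67.8% held a deep peak and 16.9% a shared one, and the median density was 2.17 peaks per 100 kb of interior. Pooled density was 3.47 per 100 kb (3.35 to 3.59) in genes with 10 to 50 kb of interior, 3.45 (3.34 to 3.56) at 50 to 100 kb and 1.47 (1.42 to 1.53) in the 207 genes with over 500 kb. The median over genes was 0, 2.84 and 1.31 in these classes, so it was highest in the middle one. Across genes, peak number and interior length had a Spearman correlation of 0.65, and density and length, in genes of at least 50 kb, one of -0.12, both descriptions over genes that share 1 library.

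**Figure D3:**
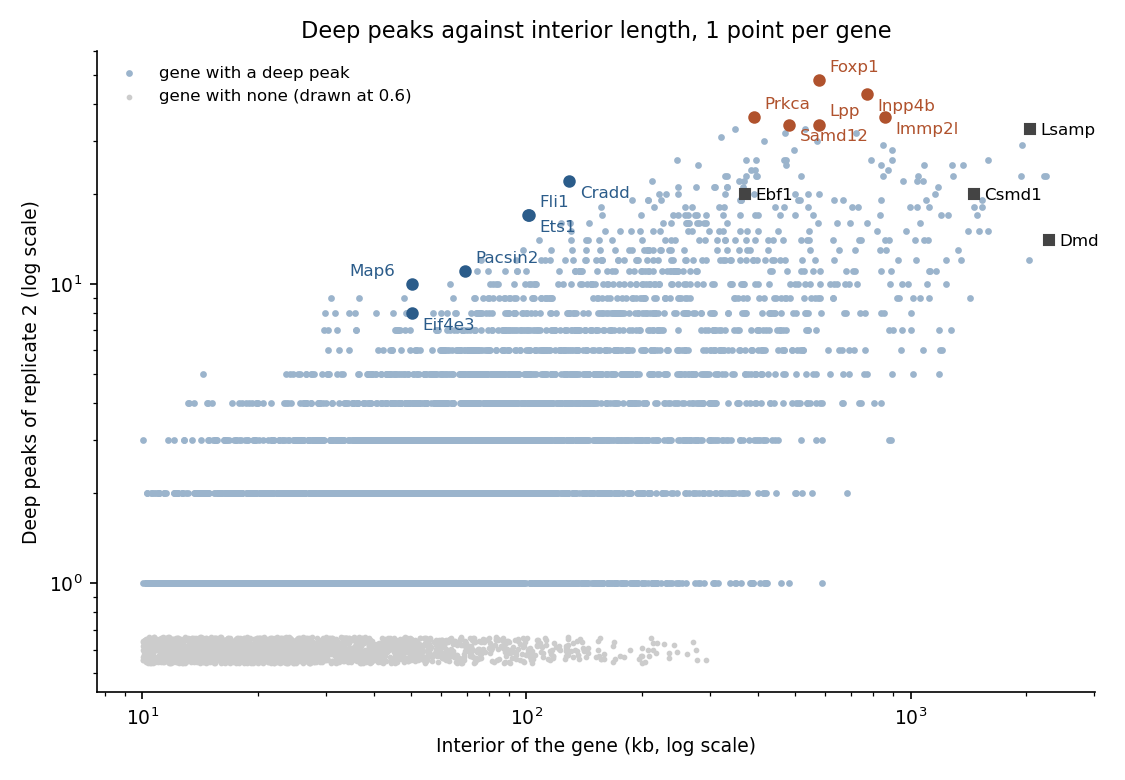
Deep peaks of replicate 2 per gene (vertical axis, log scale) against interior length in kb (horizontal axis, log scale), 1 point per gene with at least 10 kb of interior; genes with none are drawn in the grey band. Foxp1 is highest with 48 peaks, Fli1 and Ets1 reach 17 in about 101 and 102 kb, and Dmd holds 14 in 2297 kb.

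Foxp1, a forkhead factor needed early in B-cell development, held the most deep peaks, 48 in 577 kb of interior (8.31 per 100 kb, 6.13 to 11.02). Of these, 4 were shared, with replicate 2 scores of 2668, 3100, 2497 and 2940 and replicate 3 scores of 127, 268, 147 and 202. Its other 44 peaks were in replicate 2 alone. Foxp1 also held the longest run of neighbouring peaks, 23 peaks over 144 kb a run being peaks joined across gaps shorter than a limit near the median gap. Inpp4b, a phosphoinositide phosphatase that limits PI3K signalling, followed with 43 deep peaks, 5 of them shared.

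Prkca, which encodes protein kinase C alpha, held 36 deep peaks in 390.5 kb and the most shared ones, 7. Their replicate 2 scores ran from 1983 to 3100 and their replicate 3 scores from 83.4 to 330, the last at chr11:108222279-108224231, 121 kb from the nearest gene end. Prkce, of the same kinase family, held 32 deep peaks and 5 shared. In both kinase genes the shared peaks lay at several separate places. Etv6, an ETS-family repressor of blood cells, had 5 shared of 18 (9 deep peaks with the ends of all RefSeq genes), with replicate 2 scores of 3100, 1878, 2740, 3100 and 3100 and replicate 3 scores of 186, 71.2, 97.5, 170 and 383.

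The remaining hosts with the most deep peaks were Immp2l with 36, Lpp and Samd12 with 34 each, and Fggy, Rad51b and Lsamp with 33 each. Immp2l encodes a subunit of the mitochondrial inner membrane peptidase and Rad51b a recombination protein. Their shared peaks numbered 1 in Immp2l, 3 in Lpp, 3 in Samd12, 4 in Fggy, 2 in Rad51b and 0 in Lsamp. Lsamp, a neuronal adhesion molecule, thus had many peaks and no support, and its density was 1.61 per 100 kb (1.11 to 2.26) over 2051 kb. Wwox, Ank3, Stard13 and Ssh2 each held 5 shared peaks, of 28, 25, 20 and 19 deep peaks. In Wwox the highest replicate 3 score was 745, at chr8:114818790-114820587.

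**Figure D4:**
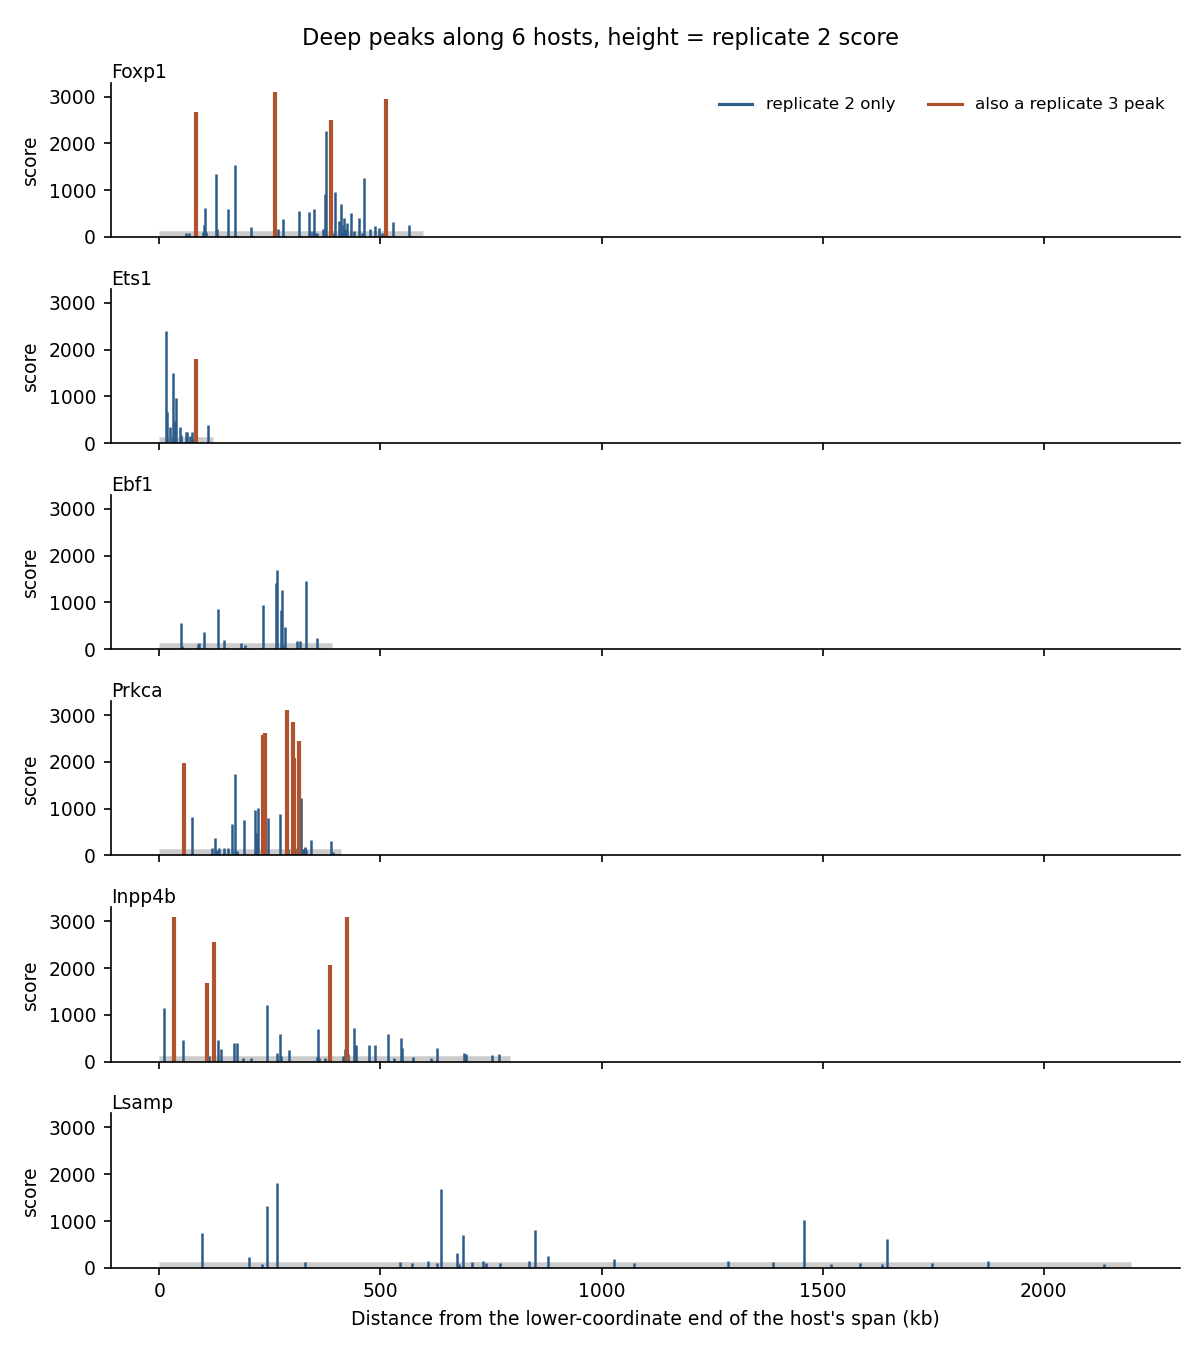
Replicate 2 score (vertical axis) of each deep peak along 6 hosts, by distance in kb from the lower-coordinate end of the host's span (horizontal axis, grey bar = span); brown lines also have a replicate 3 peak. Prkca shows 7 shared peaks and Foxp1 4, while the peaks of Ebf1 and Lsamp are in replicate 2 alone.

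Density gave a different order. Among genes with at least 50 kb of interior, Map6, a microtubule-stabilising protein, had 19.9 deep peaks per 100 kb (9.52 to 36.5), from 10 peaks of which none was shared. With the ends of all RefSeq genes in the distance rule it held 3. Cradd, a death-domain adaptor, had 17.0 (10.7 to 25.7) from 22 peaks. The neighbouring ETS genes Fli1 and Ets1 had 16.8 (9.78 to 26.9) and 16.7 (9.75 to 26.8), each from 17 peaks with 1 shared. In Ets1, 16 of the 17 formed a single run over 69.3 kb. Pacsin2, Eif4e3, M1ap, Kirrel, Itpkb and Rnf157 followed at 15.9 to 14.02 per 100 kb, with 8 to 12 peaks each, and their intervals overlapped those of the genes above. In all, 81 of 3469 such genes reached 10 per 100 kb, and 752 were under 1.

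Some long genes held none. Ncam1, a neural adhesion molecule, had no deep peak in 277 kb of interior, where a count of 0 allows up to 1.08 per 100 kb (3 counts). Dclk1 had none in 277 kb, Sdk2 none in 271 kb and Igf1r, the insulin-like growth factor receptor, none in 261 kb. Gli3, Bmper, Gm4724, D7Ertd443e and Farp1 also had none, in 229 to 246 kb each. Of 847 genes with at least 200 kb of interior, 20 held no deep peak. These limits cover counting error only.

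The 8 gene lists reported here differed in density, and they are described by their counts and medians without a test. The lists were chosen with earlier results of these data known. A list value above that of all genes, or of genes of like length, is therefore a description and not independent support for an excess. All list counts and medians are over members with at least 10 kb of interior, as are those over all genes. The highest median was that of B-cell receptor and PI3K signalling genes, 6.88 deep peaks per 100 kb against 2.17 over all genes, with 29 of 36 members above the all-gene median. Of these 36, 32 held a deep peak and 24 a shared one, against 67.8% and 16.9% of all genes. Inpp4b, Prkce, the calcium-channel gene Itpr2 (26 deep, 3 shared) and Prkcb (17 deep, 1 shared) held the most. Plcg2, the phospholipase that B-cell receptor signalling activates, held 9 with 1 shared, its replicate 3 score being 255. Blk, Sos1, Sos2 and Nfatc3 held none. The median interior of these members was 83.5 kb, against 46.6 kb over all genes, and a longer gene has more room for at least 1 peak. Of all genes with 50 to 100 kb of interior, 81.8% held a deep peak and 17.6% a shared one.

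B-lineage transcription factor genes had a median of 5.49 per 100 kb. Of the 27 with at least 10 kb of interior, 26 held a deep peak and 18 a shared one. Over all genes 67.8% and 16.9% did. The median interior of these members was 114 kb. Of all genes with 100 to 200 kb of interior, 91.4% held a deep peak and 29.2% a shared one. The list's 96.3% (81.0 to 99.9) with a deep peak has that 91.4% inside its interval. Its share with a shared one, 66.7% (46.0 to 83.5), lay above 29.2%. Foxp1, Ebf1 and Erg held the most, with 48, 20 and 19. Ebf1, which drives commitment to B cells, had deep peaks scoring from 75.4 to 1689 in replicate 2 and none in replicate 3. Erg, an ETS factor, had none in replicate 3 either, its highest replicate 2 score being 2094. Pax5, which fixes B-cell identity, held 7 deep peaks (2 with the ends of all RefSeq genes) and 1 shared, at 3100 in replicate 2 and 146 in replicate 3. Ikzf1 held 7 with 1 shared, Ikzf3 4 with 2, Runx1 10 with 2 and Bcl11a 3 with none. Runx1 had the highest replicate 3 score of these 4, 575.

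Myeloid genes had a median of 5.73. Of the 17 with at least 10 kb of interior, 16 (94.1%, 71.3 to 99.9) held a deep peak and 3 (17.6%, 3.799 to 43.4) a shared one. Over all genes 67.8% and 16.9% did, so the latter share was near that of all genes. Of genes with 50 to 100 kb of interior, the class of the myeloid median of 82.6 kb, 81.8% held a deep peak. That value lies inside the myeloid interval. Csf1r, the receptor for a macrophage growth factor, also held 1 deep peak but has only 5.57 kb of interior. Plxnc1 held 11 with 1 shared, at 3100 and 228. Adgre1, which encodes the macrophage marker F4/80, held 8, Lyst 8 and Plxdc2 7, all in replicate 2 alone and with highest scores of 1007, 275 and 333. Pooled over members, shared deep peaks numbered 1.80 per Mb (0.371 to 5.25) in myeloid genes, 9.77 (7.23 to 12.9) in B-cell receptor genes and 2.28 (2.17 to 2.39) over all genes, a value inside the myeloid interval.

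**Figure D5:**
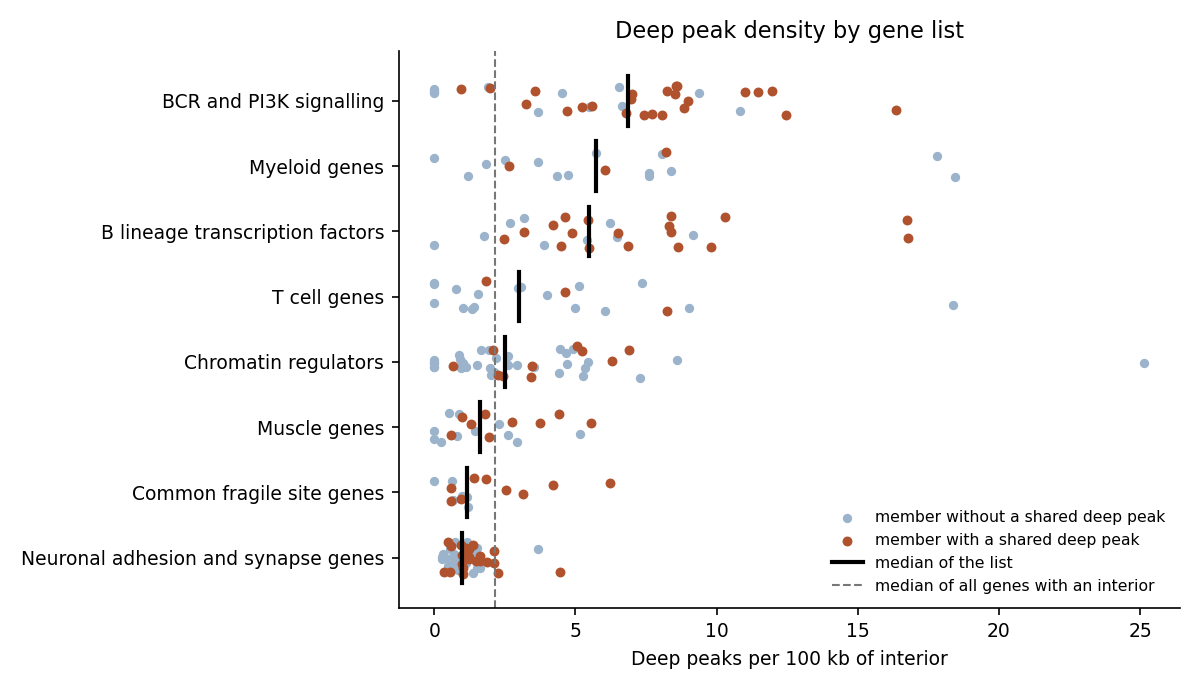
Deep peaks per 100 kb of interior (horizontal axis) for each member of 8 gene lists (vertical axis), 1 point per gene with at least 10 kb of interior, brown where the gene holds a shared deep peak; black lines are list medians and the dashed line is the median of all genes. List medians run from 6.88 for B-cell receptor and PI3K signalling to 0.991 for neuronal adhesion and synapse genes.

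Elmo1, an engulfment and motility adaptor, held 28 deep peaks with 3 shared. Among the Dock exchange factors, Dock10 held 14 with 2 shared, Dock2 6 with 1 and Dock8 3 with none, and Arhgap15 held 14 with 2. Chromatin regulators had a median of 2.51, and 39 of 44 (88.6%, 75.4 to 96.2) held a deep peak and 10 (22.7%, 11.5 to 37.8) a shared one. Of all genes with 50 to 100 kb of interior, the class of this list's median of 88.3 kb, 81.8% and 17.6% did, values inside those intervals. The members with the most were Hdac9 at 29, Arid1b at 23, Chd9 at 13 and Mbd5 at 9. Tet1 and Tet2 were among the 5 with none. T cell genes had a median of 3.02. Of the 20 with at least 10 kb of interior, 17 held a deep peak (85%, 62.1 to 96.8) and 3 a shared one (15%). Over all genes 67.8% and 16.9% did. In the class of 50 to 100 kb, which holds the T cell median of 88.6 kb, 81.8% held a deep peak, near the T cell share. Their pooled density, 2.61 per 100 kb (2.04 to 3.29), was close to the 2.64 of all genes. The list was led by Camk4 with 12 and Rora with 11, neither with a shared one. Prkcq, a kinase of T-cell receptor signalling, held 9 with 2 shared, and Prkch 8 with 2.

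Lists of very long genes had low densities although nearly every member held a peak. All 50 neuronal adhesion and synapse genes held a deep peak, and 22 (44%) a shared one, at a median of 0.991 per 100 kb. Their median interior was 1033 kb. Of all 207 genes with over 500 kb of interior, 100% held a deep peak and 42.5% a shared one, so these shares were near those of genes this long. Tenm4 held 32 with 4 shared, Dlg2 29 with 1, Nrxn3 26 with 1 and Csmd1 20 with none. Muscle genes had a median of 1.62, led by Utrn with 26 and Sgcd with 18. Nebl held 14, and Dmd, the dystrophin gene of chromosome X, also held 14, with 1 shared peak scoring 3100 and 449. Common fragile site genes had a median of 1.16. Fhit held 15 with 1 shared in 1592 kb and Ctnna3 25 with 2 in 1372 kb. For the neuronal, muscle and fragile site lists the reading turns with the measure: the share of members with a deep peak was above that of all genes, and the median density below it. None of these shares with a deep peak was above that of genes of like length. It was 90% for muscle genes, against 96.9% of genes with 200 to 500 kb, the class of their median interior. For fragile site genes it was 93.3%, against 100% of genes over 500 kb. The share with a shared deep peak was 45% (23.1 to 68.5) for muscle genes, against 39.7% of genes with 200 to 500 kb. Among fragile site genes it was 60% (32.3 to 83.7), against 42.5% of genes over 500 kb. Both intervals include the value of genes of like length.

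The 10 deep peaks with the highest replicate 3 scores were in 10 different genes. Pms1, a mismatch repair gene, held one at chr1:53264216-53265940, 32.0 kb from the nearest end, with 3100 in both lists. Tafa2 held one at chr10:123461834-123463275, 199 kb from the nearest end, also 3100 in both. Epg5, an autophagy gene, and Cecr2, a bromodomain gene, likewise had 3100 in both. Smyd3 had 3057, Atp10b 2740 and Il20ra 2702 in replicate 3. Nsmaf had 1989, Jazf1 1531 and Syne1 1421. All 10 scored 3100 in replicate 2. Over the 1687 shared deep peaks the median replicate 3 score was 135.

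Neighbouring deep peaks of 1 host were a median of 12.4 kb apart (quartiles 4.88 and 29.9 kb). Joining peaks across gaps below a limit just above that median, under which 50.2% of gaps lay, gave 12411 groups, of which 8555 were single peaks and 377, in 341 hosts, held 5 or more. After Foxp1 and Ets1, the longest runs were in Prkce and Erg with 14 peaks each, and in Prkca, Mtss1, Megf10 and Atp10a with 13. The share with replicate 3 support was 7.14% (6.61 to 7.71) for single peaks, 8.38% (7.59 to 9.23) in pairs, 10.9% (9.96 to 11.9) in groups of 3 or 4 and 10.5% (9.29 to 11.8) in groups of 5 or more. The median best replicate 2 score of these groups was 195, 545, 1101 and 1902 in turn. The shares by group size were not matched on score. The run in Prkca had 4 shared of 13 and that in Erg none of 14, both named after their values were seen. Shared deep peaks were also wider, with a median of 1206 bp against 974 bp. The series' merged list overlapped 66.6% of deep peaks (66.0 to 67.3), against 74.0% of those near ends and 59.7% of those outside.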

How the data were processed

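PU.1 ChIP-seq peak lists of 2 induced libraries were used, with a merged interval list for the series. The 1 input DNA sample has no list here; its role in peak calling is not stated in the labels. Per the submitters' processing notes, reads were processed with Trim Galore, Bowtie and MACS 1.4.1 on mm10. The labels give no other tool version and no account of the merged list. Peaks were called per sample. The deposited score in column 5 was given by the authors' peak caller, is taken as a p-value on a log10 scale times minus 10, and is not normalized between libraries. It was used only to rank, filter or bin peaks within its own list. The value 3100 is read as a ceiling, which the sources used here do not state. It is not a maximum, since some replicate 2 peaks score above it, up to 3233. The merged list holds a score of 0 throughout and gave positions alone.

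Protein-coding spans, without strand or exons, came from a RefSeq table of GRCm38.p6, and 300-base start windows from a RefSeq promoter table that is not complete and left 1137 hosts without a strand. Overlap meant at least 1 bp. Interior bases under several spans went to the shortest. Shares carry exact Clopper-Pearson and rates exact Poisson 95% intervals, which cover counting error only. Depth is unknown, since the lists hold no read counts. Fisher exact tests were two-sided and adjusted with Benjamini-Hochberg over 4 comparisons, at a threshold of 0.05. The scripts were tested on simulated data. Python 3.11.15, scipy 1.17.1, pandas 2.3.3, statsmodels 0.14.6 and matplotlib 3.10.9 were used.

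Genes named are the 10 hosts with the most deep peaks, the most shared ones, the highest density (at least 50 kb of interior) and the longest empty interiors. To these were added the 10 deep peaks with the highest replicate 3 score, up to 4 members per list and a fixed set of B-lineage, signalling, Dock and long genes. Other genes named, in the runs, the start windows and the empty list members, were chosen after their values were seen. 1 gene that the rule names and 1 gene list are not reported here. The members and lists were chosen with earlier results of these data known. Alternatives were other distances (5 and 20 kb), a score of at least 100, all RefSeq gene ends, whole peaks, no chromosome X, replicate 3 in place of replicate 2, the merged list, 50% reciprocal overlap and matching on score.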

Additional observations from a re-analysis of the deposited data

How the results depend on the processing

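The number of deep peaks was 1688 without replicate 2, that is, with replicate 3 peaks placed by the same rule, and 12987 in the merged list. Under the other alternatives it stayed within 1.5 times of 19556. Deep peaks per Mb were 27.6 with 5 kb, 24.9 with 20 kb, 21.6 with scores of at least 100, 25.8 with the ends of all RefSeq genes, 26.1 with whole peaks, 27.0 without chromosome X, 17.6 in the merged list and 2.29 without replicate 2. The share with replicate 3 support was 7.40% with scores of at least 100, 13.0% in the merged list and 7.92% with 50% reciprocal overlap. Against near ends, the odds ratio of support was 0.933 with 20 kb (Fisher exact test, adjusted p = 0.04998) and 0.936 with all gene ends (adjusted p = 0.0459), both past the threshold and below 1. It was past the threshold and above 1 in the merged list, at 1.09 (Fisher exact test, adjusted p = 0.0237). Its intervals also lay above 1 within score bins, at 1.43 (1.27 to 1.61) for 1% and 1.32 (1.19 to 1.47) for 10% bins, and at 1.40002 (1.24 to 1.58) within 1% bins below 3100, the last added after seeing the data. It was above 1 without passing at 1.03 with scores of at least 100, 1.04 with 50% overlap and 1.01 below 3100. Against outside peaks it was 1.06 in the merged list (Fisher exact test, adjusted p = 0.124), and below 1 at 0.932 within 1% bins, 0.931 within 10% bins and 0.928 within 1% bins below 3100. The cause of these changes was not tested, beyond what matching on score does by construction. Both comparisons of the highest 10% of scores kept their direction and call under all 6 alternatives that could be run. The merged list carries no score, so it gave none. With the share of members holding a deep peak in place of median density, the ratio to all genes was 1.48 in place of 0.457 for neuronal, 1.33 in place of 0.746 for muscle and 1.38 in place of 0.537 for fragile site genes. Host numbers were 5331, or 5361 with every spanning gene. Of 65 named hosts, 60 kept a count within its Poisson interval with all gene ends and 51 in the merged list. With all gene ends Map6 went from 10 to 3, Pax5 from 7 to 2, Etv6 from 18 to 9 and Stard13 from 20 to 12. In the merged list Lsamp went from 33 to 13 and Dmd from 14 to 3. No paired analysis was possible because both libraries belong to 1 group.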
